A study of Mus musculus with 25 samples.

Results

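The chromatin contacts of 5 genes encoding subunits of the transcription factor AP-1 were followed from mouse fibroblasts to embryonic stem (ES) cells. The genes were Jun, Junb, Fos, Fosl1 and Fosl2. Contacts were deposited as pairs of 10 kb bins of 1 chromosome, and each gene was given the bin of its start and the bin on either side, a window of 30 kb. Every listed bin pair with an anchor in such a window was taken from all 9 interaction lists, which gave 512 of the 912901 entries. These are 175 distinct pairs: 19 for Jun, 47 for Junb, 42 for Fos, 36 for Fosl1 and 31 for Fosl2.

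AP-1 is a dimer of a Jun and a Fos family protein that binds DNA through a basic leucine zipper. Jun and Junb encode Jun proteins, which can pair with each other or with a Fos protein. Fos, Fosl1 and Fosl2 encode Fos proteins, which need a Jun partner to bind DNA well. Jun and Fos are textbook immediate-early genes, switched on quickly by growth factors and stress, and AP-1 is abundant at the active enhancers of fibroblasts.

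The fibroblasts (MEFs) came from E13.5 embryos that were heterozygous for the rtTA3 transactivator, the doxycycline-inducible OKSM cassette of reprogramming factors and an Oct4-GFP reporter. MEF libraries are of passage 3 cells, and the KLF4 libraries of such cells are from day 3 or day 6 of culture with doxycycline and ascorbic acid. Day 3 cells were an unsorted population and day 6 cells were sorted for the surface marker SSEA1, so time and sorting cannot be told apart. ES cells were of the V6.5 line in 2i medium. Cells labelled TKO were of the same line and medium, at 0 h or after 24 h with doxycycline, and the labels do not say what TKO stands for or what doxycycline does in them. HiChIP recovers ligated contacts with an antibody, here against the histone mark H3K27ac, found at active promoters and enhancers, or against the transcription factor KLF4, one of the reprogramming factors. Hi-C uses no antibody. H3K27ac was profiled in MEF (2 libraries), ES (2), TKO 0 h (3) and TKO 24 h (3), KLF4 at day 3 (3), at day 6 (4) and in ES (4, of which replicate 1 alone is labelled with a catalogue number for its antibody), and Hi-C in MEF (2) and ES (2). No label says whether replicates came from separate cultures or embryos, so p-values measure the spread between these libraries, which may be technical.

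HiChIP libraries held 48.7 to 181 M contacts (M, 1e+06). The H3K27ac libraries were deeper in ES (166 and 168 M) than in MEF (75.0 and 105 M). Listed pairs of the 5 genes held 3 to 263 counts per HiChIP library, with a median of 26. At genes that mark the cell types, Nanog had 2 listed H3K27ac pairs in MEF and 45 in ES, and Sall4 had 0 and 26. Col1a1 had 17 in MEF and 0 in ES, and Thy1 18 and 0. As all values come from bulk cells, a contact made in fewer cells and a weaker contact per cell cannot be told apart. In HiChIP, neither can be told apart from a change in the amount of H3K27ac or KLF4 at the anchors.

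Jun lies on chromosome 4 (mm10, 95049036-95052222), on the minus strand, with its start in the central bin and its end in the bin before. Throughout, the bin before has lower and the bin after or next higher coordinates, whatever the strand. Junb lies on chromosome 8 (84976909-84978748, minus strand), with the starts of Prdx2, Rnaseh2a and Hook2 in the flanking bins of its window. Fos lies on chromosome 12 (85473890-85477274, plus strand), and no other protein-coding gene starts in its window. Fosl1 lies on chromosome 19 (5447698-5455938), and the start of Ccdc85b lies in the bin after it. Fosl2 lies on chromosome 5 (32136472-32157840, plus strand), with no other start in its window. Contacts of Junb and Fosl1 may therefore belong to a neighbour in the same bin, which the 10 kb resolution does not separate.

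Contacts are assigned to bins of 10 kb, so a listed pair need not start from a promoter. Of the H3K27ac pairs, 48 of 100 in MEF and 24 of 66 in ES touched a central bin. The promoters of the genes are shown because the gene starts set the windows. Each is the 250 bases before the gene start, 5′ to 3′ on the strand of the gene, from RefSeq (GRCm38.p6), and 4 of the 5 genes had an entry. Their positions are chr4:95052223-95052472 (Jun), chr8:84978749-84978998 (Junb), chr12:85473640-85473889 (Fos) and chr5:32136222-32136471 (Fosl2). The letters are all lower case because no searched motif was found.
Jun: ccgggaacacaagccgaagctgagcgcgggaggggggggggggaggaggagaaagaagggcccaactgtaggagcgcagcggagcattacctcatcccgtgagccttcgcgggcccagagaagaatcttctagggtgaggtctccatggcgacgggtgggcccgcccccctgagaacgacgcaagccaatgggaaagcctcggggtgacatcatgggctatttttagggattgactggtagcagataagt
Junb: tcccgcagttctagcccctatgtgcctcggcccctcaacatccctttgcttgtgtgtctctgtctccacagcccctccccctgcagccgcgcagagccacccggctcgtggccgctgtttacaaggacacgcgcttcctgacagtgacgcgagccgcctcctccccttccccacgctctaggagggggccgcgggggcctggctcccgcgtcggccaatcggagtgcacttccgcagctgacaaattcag
Fos: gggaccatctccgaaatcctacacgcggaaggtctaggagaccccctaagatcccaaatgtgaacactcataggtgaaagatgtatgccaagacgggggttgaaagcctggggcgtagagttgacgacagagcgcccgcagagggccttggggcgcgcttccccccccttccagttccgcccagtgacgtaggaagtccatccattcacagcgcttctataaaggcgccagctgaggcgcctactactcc
Fosl2: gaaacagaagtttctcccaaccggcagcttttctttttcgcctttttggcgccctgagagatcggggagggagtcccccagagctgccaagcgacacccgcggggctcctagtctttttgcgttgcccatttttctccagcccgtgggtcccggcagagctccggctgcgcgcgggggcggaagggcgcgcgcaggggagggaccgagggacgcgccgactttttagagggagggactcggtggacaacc
Motifs were searched on both strands in windows of 300 bases, which add the first 50 bases of the gene. They were the AP-1 site TGACTCA, the cyclic AMP response element TGACGTCA, the KLF4-type site GGGNGTGG and the CArG box that serum response factor binds. None was present in the 4 windows. These motifs occurred in 5.20%, 1.79%, 17.6% and 1.63% of 32817 windows of all genes. Matches had to be exact, so a near match such as tgacatca in the Jun stretch was not counted. Sites outside the windows were not searched. The 4 printed stretches held 58.4% (Fos) to 66.4% (Junb) G and C, against a median of 52.4% over all genes.

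In fibroblasts all 5 genes had many listed H3K27ac contacts, and in ES cells Junb had more, Fos and Fosl1 fewer, and Jun and Fosl2 nearly none. Jun was listed with 15 pairs in MEF and 1 in ES, Fosl2 with 22 and 0, Fos with 25 and 16, and Fosl1 with 21 and 14. Junb was listed with 17 and 35. Over the 5 genes there were 100 pairs in MEF and 66 in ES. Few passed the authors' own false discovery rate (FDR) against their expectation. It was under 0.1 for 8 of the 100 pairs in MEF and 7 of the 66 in ES, beside 1.84% and 5.90% of the whole lists. In MEF these were 5 pairs of Fos, 2 of Junb, 1 of Fosl2 and 0 of Jun and of Fosl1. Each list was called once per group, so these numbers have no replicate and no test. With 1 count cutoff for all chromosomes the difference over the 5 genes was -14 in place of -34, and each gene kept its direction. With only the pairs that touch the central bins, Fos had 9 pairs in MEF and 8 in ES, Junb 8 and 13, Jun 10 and 1, Fosl1 9 and 2, and Fosl2 12 and 0.

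**Figure D1:**
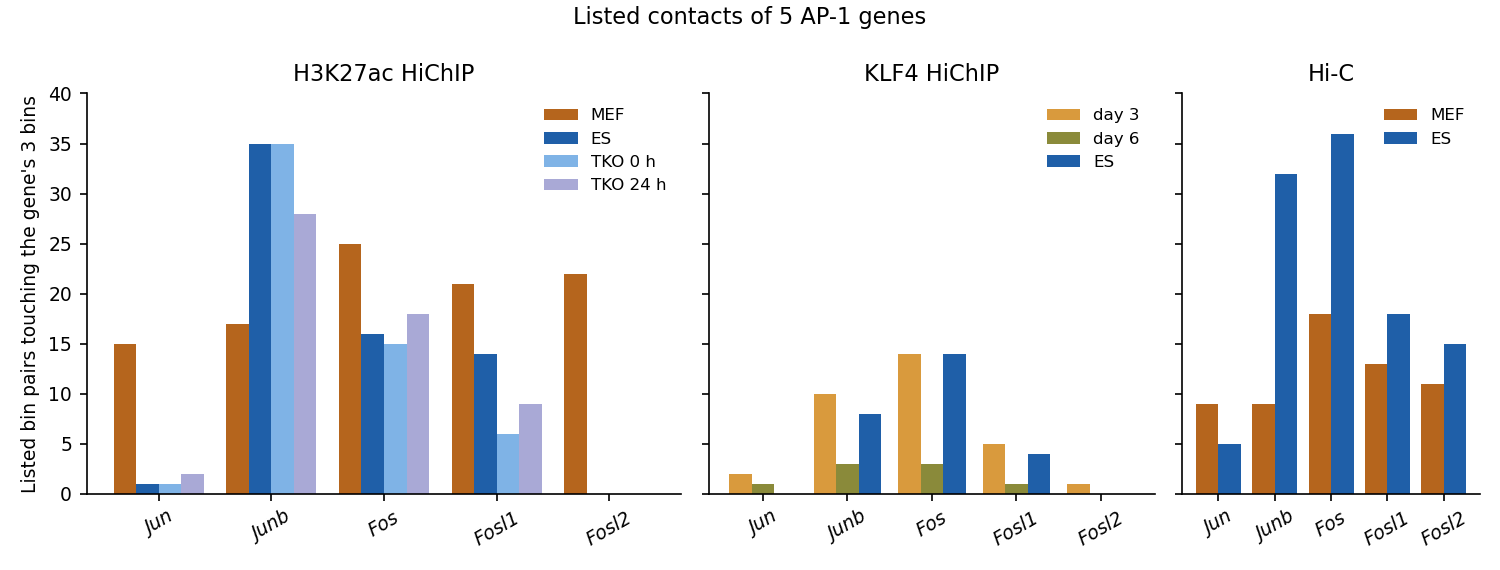
Number of listed bin pairs (y axis) that touch the 3 bins of each AP-1 gene (x axis), in the H3K27ac, KLF4 and Hi-C lists, with 1 bar per list. Junb has 35 H3K27ac pairs in ES against 17 in MEF, while Fosl2 has 22 in MEF and none in the other H3K27ac lists.

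Of 12503 protein-coding genes with a pair in either list, 26.3% had fewer pairs in ES and 68.5% had more, as Junb did. Jun, Fos, Fosl1 and Fosl2 were among the smaller share. The median gene had 3 more pairs in ES. A difference at or below that of Fosl2 (22 fewer) was seen for 0.208% of those genes, and for Jun (14 fewer), Fos and Fosl1 the shares were 1.10%, 3.30% and 5.17%. In MEF, the numbers of the 5 genes were reached by 0.508% (Fos) to 2.69% (Jun) of all genes. In ES the share was 1.22% for Junb, 11.1% for Fos and 13.6% for Fosl1. CPM is set per chromosome, and chromosome 19 has many listed pairs: among its own genes Fosl1 lay above 86.6% in MEF and 56.8% in ES, and with 1 count cutoff it had 6 and 2 pairs. In MEF, Jun lay above 99% of the genes of its chromosome, Junb above 99.2%, Fos above 99.4% and Fosl2 above 99.7%.

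Jun is the founding Jun subunit. Its MEF pairs reached partner bins on both sides, with a median anchor distance of 40 kb. The strongest pair joined the Jun bin to chr4:95090001, 40 kb away and annotated by the authors with 4930551L18Rik. It had 7.32 and 7.34 CPM in the 2 MEF libraries, where CPM is the count per M contacts of the same chromosome. In TKO it was listed at 3.70 ± 0.659 CPM at 0 h (SD, n = 3) and 3.45 ± 0.281 at 24 h (SD, n = 2, after libraries 1 and 3 were joined), and it was not listed in ES.

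The longest pairs of the 5 genes, of 810 and 850 kb, were of Jun, while those of Fosl2 reached 540 kb. From the central bin of Jun, MEF H3K27ac pairs reached chr4:95310001 (260 kb), chr4:95500001 (450 kb), chr4:95860001 (810 kb) and chr4:95900001 (850 kb). In this order they had 5.60 ± 1.77, 3.92 ± 0.685, 3.72 ± 0.732 and 3.66 ± 0.330 CPM (SD, n = 2). None of these 4 was in any of the other HiChIP lists. The 810 kb pair was also in the MEF Hi-C list, with signals of 24.5 and 19.9. All 15 Jun pairs lay inside 1 domain of the MEF Hi-C list, chr4:95000001-95920000, whose far edge is 1 bin past the longest pair. The ES domain with the same start ran to 96680000. The 1 pair left in ES joined the Jun bin to the next bin, at 6.91 ± 1.24 CPM in MEF and 5.84 ± 1.17 in ES (SD, n = 2 each). The libraries overlapped, and the log2 change was -0.39 (SE 0.22, adjusted p = 0.192, edgeR's quasi-likelihood test).

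Fosl2 encodes a Fos protein that lacks the strong activation domains of Fos. All 22 of its H3K27ac pairs were in the MEF list alone. The strongest joined the central bin to the bin before it, at 8.52 and 7.88 CPM in the 2 libraries. The next in strength joined the bin after the gene start, chr5:32140001, to chr5:32190001, at 6.44 and 9.53 CPM. A second group of 4 pairs reached 440 to 540 kb before the gene, to bins at chr5:31600001, 31630001 and 31690001. The last holds the starts of Babam2 and Rbks, at 4.98 ± 0.856 CPM (SD, n = 2). With no pair in the ES list, no change in strength could be tested. Being absent from a list says only that a pair missed the authors' filters, which kept H3K27ac pairs above 3 CPM in every library.

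**Figure D2:**
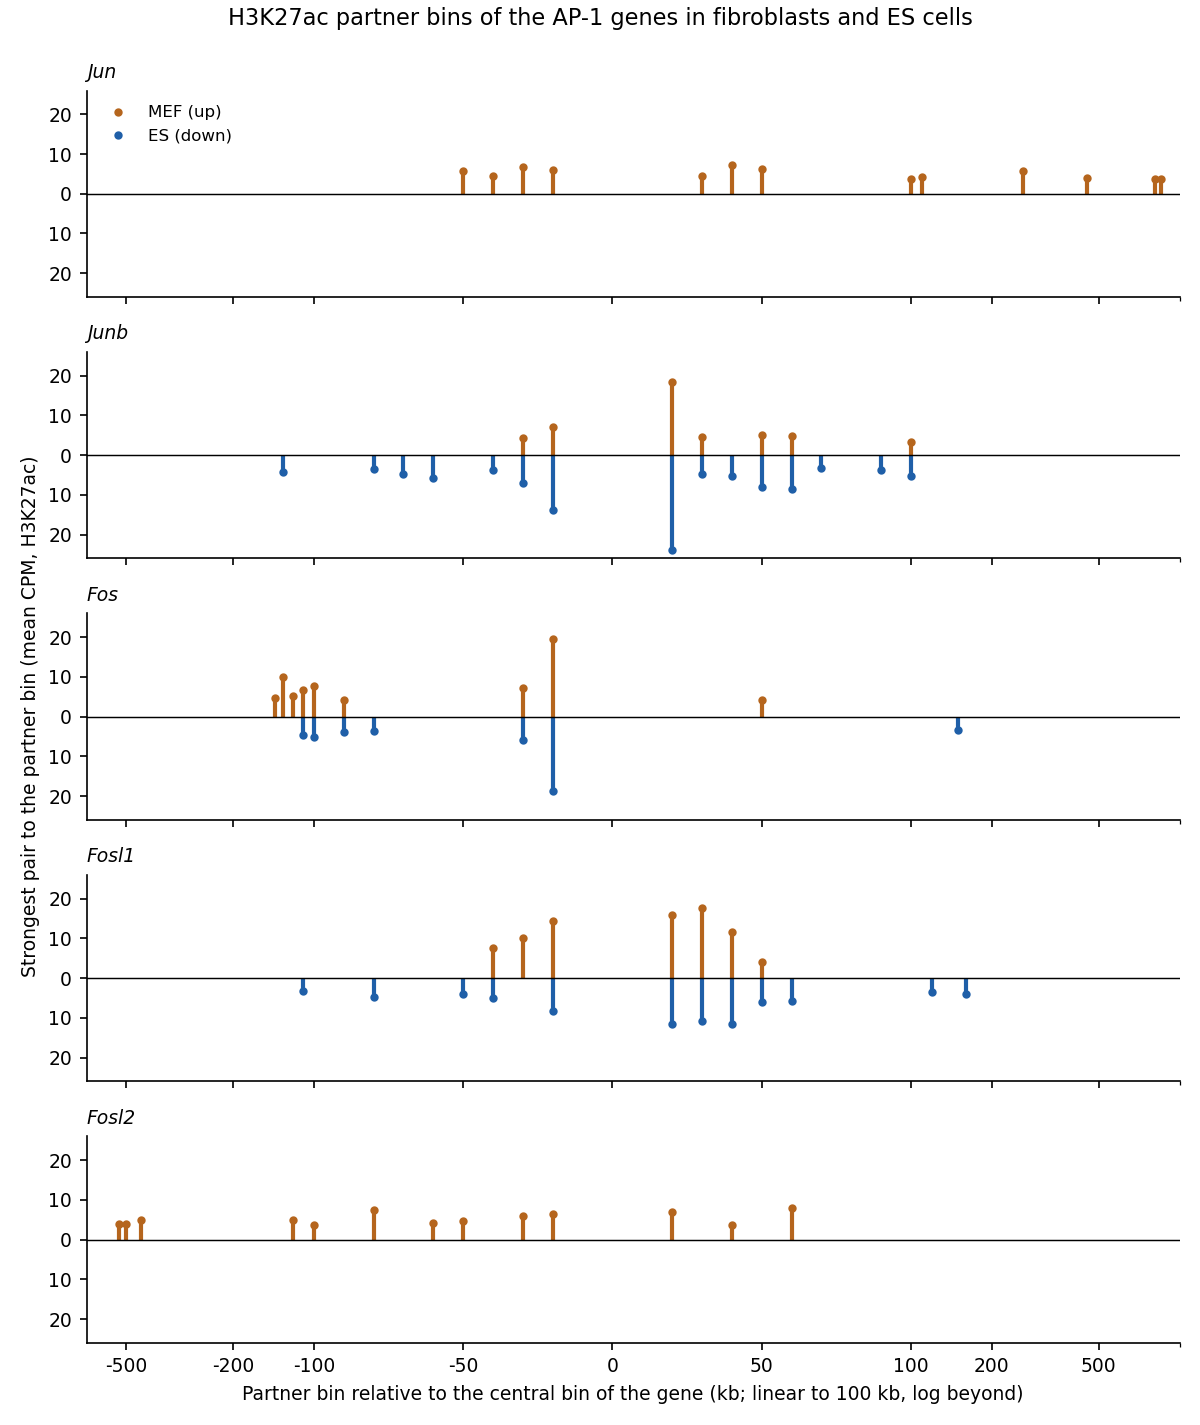
H3K27ac partner bins of each AP-1 gene by their distance in kb from its central bin (x axis, linear to 100 kb and logarithmic beyond). Heights are the mean CPM of the strongest pair to that bin, upwards for MEF and downwards for ES, and pairs within the window are left out; outside their windows Jun and Fosl2 have partners in MEF alone.

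Fos is the founding Fos subunit. Its contacts lay almost all on 1 side, before the gene start. A near block covered chr12:85440001 and 85450001, and a far block covered chr12:85330001 to 85390001, 80 to 150 kb away, with Nek9 in its first bin and Tmed10, a cargo receptor gene of the secretory pathway, at 85370001. In MEF the strongest pair joined the Fos bin to chr12:85450001, 20 kb before it, at 17.5 and 21.7 CPM, and in ES the same pair led at 19.2 and 18.0 CPM. Of the 25 MEF pairs 12 were also in the ES list. The far MEF block extended further: the pair of chr12:85340001 with 85480001 had 9.48 and 10.4 CPM in MEF and was not listed in ES.

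Fosl1 encodes a Fos protein that is itself a target of AP-1. It lies in a gene-dense part of chromosome 19, and its strongest MEF pair joined its central bin to the bin before, at 20.2 and 28.0 CPM. That pair was absent from the ES list, as were all 3 pairs within the window. Of 21 MEF pairs 9 touched the central bin, but only 2 of 14 ES pairs did. The ES pairs instead left mainly from chr19:5450001, the bin that also holds Ccdc85b. By the authors' annotation, this bin alone of the 3 held an H3K27ac peak in TKO, at both times. The 2 lists shared 6 of the 21 MEF and 14 ES pairs. Of the 15 MEF pairs not in the ES list, all 15 had an ES pair with each anchor at most 1 bin away, and 8 of 13 such pairs of Fos did. That looser overlap was chosen after seeing the data.

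Junb encodes a Jun protein that activates less strongly than Jun. Its strongest pairs were short and shared by both cell types: the Junb bin with the next bin had 19.5 and 26.6 CPM in MEF and 22.8 and 22.1 in ES. The Junb bin with chr8:84990001, which the authors annotate with Hook2 although RefSeq puts its start in the bin before, had 13.1 and 24.0 CPM in MEF and 21.9 and 25.8 in ES. Of the 17 MEF pairs 16 were also in the ES list, and 19 ES pairs were not listed in MEF. Partner bins listed in ES and not in MEF included that of Dnase2a and Klf1, at lower coordinates, and that of Best2, at higher coordinates. The bins of Tnpo2 and Dhps, up to 110 kb away at higher coordinates, were each listed with the Junb bin in MEF too. The 2 pairs of the Junb and Prdx2 bins with the bin of Dnase2a and Klf1, which encodes a KLF4 relative of red blood cells, were at 4.26 ± 0.0536 and 4.79 ± 1.27 CPM in ES (SD, n = 2). The TKO 0 h list held 32 of the 35 ES pairs of Junb, or 91.4%, against 12 of 16 for Fos, 5 of 14 for Fosl1 and 0 of 1 for Jun. Over the 5 genes 49 of 66 ES pairs (74.2%) were in the TKO 0 h list, beside 77.6% of the whole ES list.

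**Figure D3:**
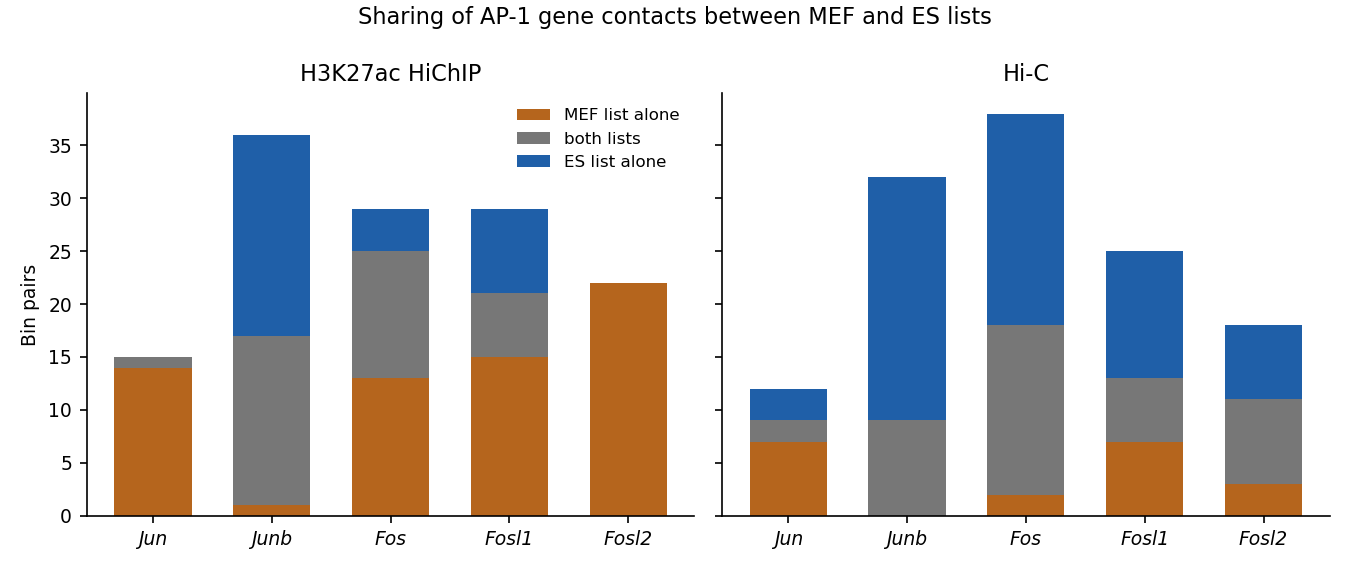
Bin pairs of each AP-1 gene (y axis, count) found in the MEF list alone, in both lists or in the ES list alone, for H3K27ac HiChIP and Hi-C. For H3K27ac, 14 of 15 Jun pairs and all 22 Fosl2 pairs are MEF alone, and 19 of the Junb pairs are ES alone.

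Strength was tested for the pairs in both the MEF and the ES H3K27ac list. Every call in Fos and Fosl1 was lower in ES and every call in Junb was higher. Of 35 pairs, 24 passed an adjusted p of 0.05 in edgeR's quasi-likelihood test, 15 lower and 9 higher in ES, against 32.0% of all 17901 shared pairs (14.4% lower and 17.6% higher). All 11 Fos calls among 12 pairs were lower, all 4 Fosl1 calls among 6 were lower, and all 9 Junb calls among 16 were higher. Of the 9 Junb calls 4 touched the Junb bin, and the others left from the flanking bins of Prdx2 and Rnaseh2a or of Hook2. Pairs of the same gene share anchor bins and often partner bins, so these calls are not independent of each other. The median log2 change was -0.87 for Fos, -0.76 for Fosl1 and 0.52 for Junb, beside -0.04 over all pairs.

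The largest fall in Fos was between its 2 flanking bins, chr12:85460001 and 85480001. They had 9.78 and 10.8 CPM in MEF and 3.89 and 5.09 in ES, a log2 change of -1.51 (SE 0.23, adjusted p = 5.44e-07, edgeR). The Fos bin with the bin before it had 18.1 and 17.0 CPM in MEF and 6.95 and 9.36 in ES, with a log2 change of -1.40 (SE 0.19). The Fos bin with the bin after it had 18.4 and 18.3 CPM against 9.45 and 8.95, a log2 change of -1.30. In each of these 3 pairs both MEF libraries lay above both ES libraries. The groups did not overlap in 26 of the 35 tested pairs, and in 18 of 41 shared Hi-C pairs, where none passed. The share over all pairs was not computed, so these 2 counts cannot be read as a trait of the AP-1 genes. The Tmed10 bin with the Fos bin averaged 7.82 CPM in MEF and 5.12 in ES, with no overlap between the libraries, a log2 change of -0.91 (SE 0.24, adjusted p = 0.00208, edgeR). The strongest Fos pair, 20 kb before the gene, fell least, by 0.40 on the log2 scale (adjusted p = 0.0379, edgeR), and its CPM overlapped between the groups. This call was lost without MEF replicate 2 and without either ES replicate. The fitted changes scale libraries by all contacts and by the shared pairs (TMM), whereas CPM refers to the chromosome, so they need not match.

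For Fosl1, the pair of the Drap1 bin (chr19:5420001) with the Fosl1 bin had 10.1 and 18.6 CPM in MEF and 8.95 and 7.63 in ES, a log2 change of -1.01 (SE 0.25, adjusted p = 0.00102, edgeR). Without MEF replicate 2 it was -0.49 and no longer passed, and DESeq2 did not call it. The pairs of the Ccdc85b bin with Drap1 and Efemp2 fell by 0.94 and 0.88 on the log2 scale, and that with the bin of Ctsw and Fibp by 0.63. The pairs of the same bin with Mus81 and Tsga10ip had log2 changes of -0.13 and -0.24, at adjusted p of 0.750 and 0.676 (edgeR). So 3 of the 4 calls left from the bin that Fosl1 shares with Ccdc85b.

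For Junb, the largest rise joined chr8:84950001 to the Prdx2 bin chr8:84960001, with 6.42 and 7.80 CPM in MEF and 13.9 and 13.8 in ES, a log2 change of 0.96 (SE 0.19, adjusted p = 5.91e-05, edgeR). From the Junb bin itself, the pair with chr8:84950001 had 3.48 and 4.95 CPM in MEF and 8.39 and 7.46 in ES (log2 change 0.89). The pair with the bin of Get3 and Trir had 3.48 and 6.28 CPM in MEF and 7.89 and 7.95 in ES (0.65), and that with Dhps, 100 kb away, 3.21 and 3.23 against 5.99 and 4.51 (0.72). Without MEF replicate 1 or ES replicate 1 neither of these last 2 passed, nor did the Dhps pair without MEF replicate 2, and the Get3 and Trir pair was at 0.41 without MEF replicate 1. The short pair of the Junb bin with the next bin had a log2 change of -0.05 (SE 0.13, adjusted p = 0.805, edgeR).

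**Figure D4:**
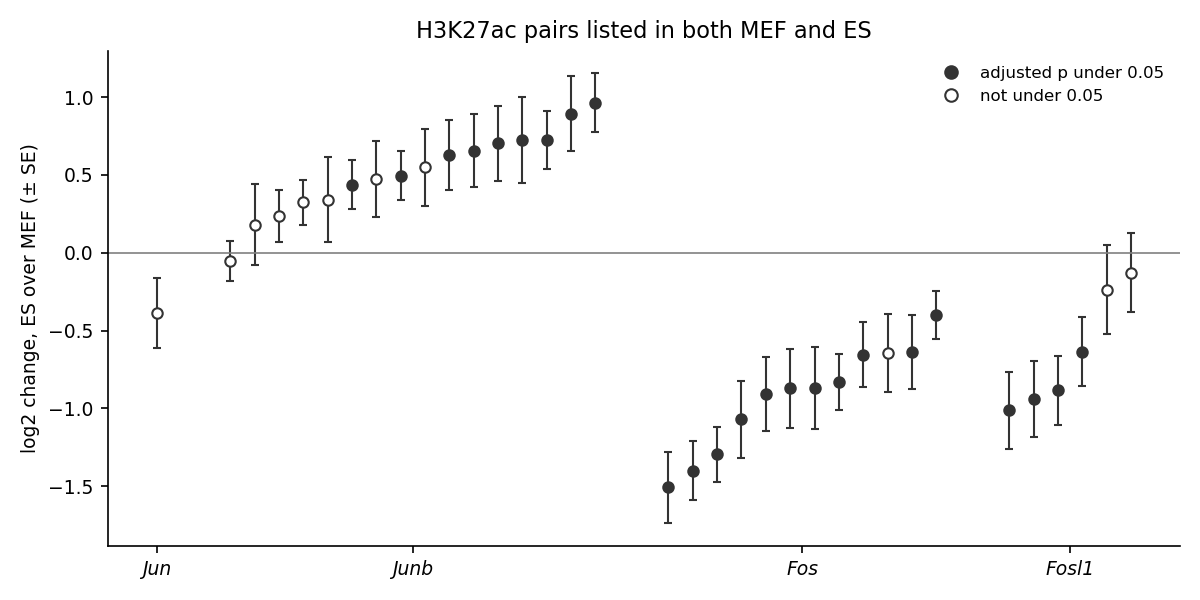
Fitted log2 change in ES over MEF of the 35 H3K27ac pairs in both lists (y axis, points with SE), grouped by AP-1 gene and ordered by size; filled points passed an adjusted p of 0.05. All 12 Fos and 6 Fosl1 points lie below 0, and 15 of 16 Junb points above.

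These counts depend on the libraries: 15 pairs passed without MEF replicate 1, 12 without MEF replicate 2, 14 without ES replicate 2 and 22 without ES replicate 1, and DESeq2 called 5 (4 of Fos and 1 of Junb). Scaling by contact totals alone moved the median of all pairs from -0.04 to 0.21 and gave 22 calls, 13 of Junb higher and 6 of Fos and 3 of Fosl1 lower. In each of these fits all 12 Fos pairs stayed below 0, whereas 2 of 6 Fosl1 pairs were above 0 with contact totals alone and 1 without MEF replicate 1 or ES replicate 1.

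Related genes were counted in the same way. Of 14 other AP-1 family genes 13 had a known start and 10 a pair in MEF or ES, with more pairs in ES for 4 and fewer for 5. Of their 45 shared H3K27ac pairs 10 rose and 10 fell. Those with most pairs were Atf7 (13 in MEF and 16 in ES, 2 of 12 shared pairs higher), Mafg (6 and 16, 2 of 6 higher), Fosb (13 and 12, 6 of 8 lower) and Jdp2 (16 and 11, 1 higher and 1 lower of 6). Jund was next (7 and 16, 5 of 7 higher and 0 lower). Among 14 immediate-early and signalling genes, 6 had more pairs in ES and 7 fewer, and of 75 shared pairs 12 rose and 30 fell. In this list were Ier3 (39 pairs in MEF and 27 in ES), Dusp1 (36 and 32), Klf6 (24 and 12) and Elk1 (8 and 25). In the other comparisons, calls in the family list numbered 0 of 19 pairs for KLF4 day 3 to ES, 0 of 2 for each KLF4 comparison with day 6, 0 of 68 for TKO and 0 of 109 for Hi-C. In the immediate-early list 4 of 28 fell from day 3 to ES, 3 of 9 (all of Ier3) fell from day 3 to day 6, 0 of 7 passed from day 6 to ES, 1 rose and 2 fell of 117 in TKO, and 0 of 110 passed in Hi-C.

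In KLF4 HiChIP the Fos and Junb windows held most of the contacts, and only those 2 genes had the same pair in all 3 lists, 3 pairs each. Fos was listed with 14 pairs at day 3, 3 at day 6 and 14 in ES. Junb was listed with 10, 3 and 8, Fosl1 with 5, 1 and 4, Jun with 2, 1 and 0, and Fosl2 with 1, 0 and 0. The authors' FDR was under 0.1 for 0 of these pairs in each list, beside 0.535%, 0.173% and 0.199% of the whole lists. Fewer pairs at day 6 than at day 3 were seen for 87.6% of 7114 genes with a pair and more for 6.93%, and all 5 genes here had fewer. With the lists brought to equal length, the difference over the 5 genes between day 3 and day 6 was 0 in place of -24, with Fos at 1 more pair at day 6. In ES, 93.2% of 9007 genes had more pairs than at day 6, as did Junb, Fos and Fosl1, and 3.51% had fewer, as did Jun. Against day 3, 28.7% of 10126 genes had fewer pairs in ES, as did Jun, Junb, Fosl1 and Fosl2, and 60.6% had more.

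Of the 39 distinct KLF4 pairs, 38 were also in an H3K27ac list. Of the day 3 pairs 30 of 32 (93.8%) were also in the MEF H3K27ac list, against 46.0% of all day 3 pairs. In ES 24 of 26 KLF4 pairs (92.3%) were in the ES H3K27ac list, against 74.0% of all. At day 3 Fos reached chr12:85340001, 130 kb away, at 7.35, 6.41 and 3.95 CPM in the 3 libraries. That bin was not listed in ES, where chr12:85390001 was paired with the Fos bin and the next at 2.79 ± 0.893 and 2.95 ± 1.12 CPM (SD, n = 2, libraries 1 with 2 and 3 with 4 joined). Both pairs of Jun at day 3 led to the bin of 4930551L18Rik, which also held the strongest Jun pair of MEF. The 1 Fosl2 pair, chr5:32140001 with 32190001 at 3.22, 3.81 and 4.70 CPM, was the second strongest of its MEF H3K27ac pairs.

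The pair of the Junb bin with the next bin led at day 3, with 15.8, 13.3 and 11.0 CPM. It had 5.75, 5.43, 5.35 and 5.27 CPM at day 6 and 9.20, 10.1, 12.7 and 9.46 in ES. All day 6 libraries lay below those of the other groups. The libraries of day 3 and day 6 did not overlap in 5 of 7 shared pairs, and those of day 6 and ES in 3 of 6. The share over all shared pairs was not computed for these 2 counts. Scaled by contact totals alone, the median of all shared pairs was itself -0.58 from day 3 to day 6 and 0.58 from day 6 to ES. The 2 counts therefore show nothing particular to the AP-1 genes. The 4 day 6 libraries differed from each other by less than counting noise (chi-square p of 0.536 to 0.985 per pair of libraries) and were kept as 4 samples. The log2 change from day 3 to day 6 was -0.59 (SE 0.17, adjusted p = 0.0263, edgeR), and it was the only 1 of 7 shared pairs to pass, against 5.33% of 2571 (1.32% higher and 4.01% lower). With contact totals alone all 7 passed as lower, but there the median of all pairs moved to -0.58, and DESeq2 called none. The call was lost without day 3 replicate 2 and without each single day 6 library.

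From day 6 to ES, 0 of 6 shared pairs passed in edgeR, against 3.37% of 2076 (2.60% higher and 0.771% lower). DESeq2 called none. An unadjusted p under 0.05 (edgeR) was seen for 4 of the 6, beside 370 of all 2076. The same Junb pair had a log2 change of 0.63 (SE 0.19, adjusted p = 0.0557, edgeR). Without ES replicates 1 and 2, which were joined as 1 sample, 4 pairs passed, and with contact totals alone 5 did, at a median of 0.58 over all pairs. For the pair of the Fos bin with chr12:85450001 the ES libraries stood apart, with 6.48 and 5.25 CPM in replicates 1 and 2 and 10.7 and 15.5 in replicates 3 and 4. At day 6 it had 5.14, 3.87, 5.21 and 2.64 CPM.

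From day 3 to ES, 1 of 20 shared pairs passed, against 7.20% of 7387 (3.02% higher and 4.18% lower). It joined chr8:84950001 to the Prdx2 bin in the Junb window, with 7.91, 7.16 and 6.20 CPM at day 3 and 10.1, 9.14, 7.55 and 7.54 in ES. Its log2 change was 0.62 (SE 0.20, adjusted p = 0.0400, edgeR), the libraries overlapped, and the call was lost without any single day 3 library, with DESeq2 and with contact totals alone. This is the pair that rose most among the Junb H3K27ac pairs from MEF to ES. The 3 KLF4 comparisons share their groups pairwise and are not independent of each other.

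**Figure D5:**
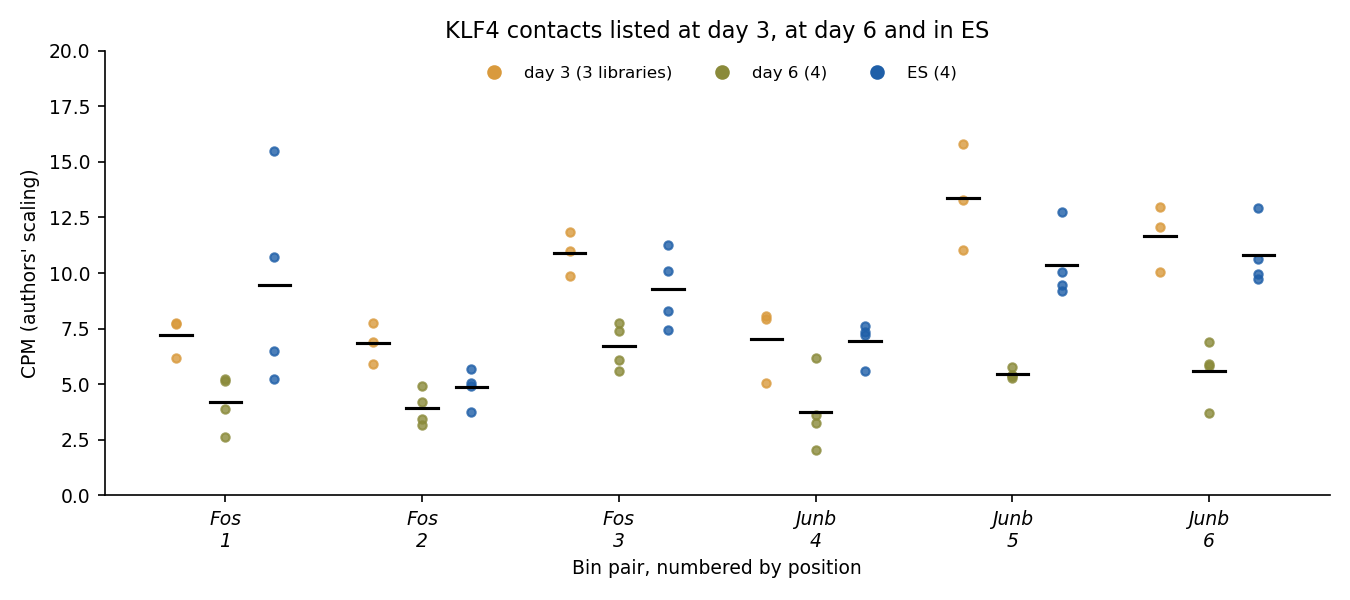
KLF4 CPM (y axis) of the 6 AP-1 gene pairs listed at day 3, at day 6 and in ES (x axis), with 1 point per library and a bar at the mean of the libraries shown. Pairs 1 to 3 join the Fos window to chr12:85450001 (1) or lie within it, and pairs 4 to 6 are of Junb; in pair 5, the Junb bin with the next bin, the day 6 points lie between 5.27 and 5.75 and below all others.

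In TKO cells the AP-1 contacts were counted at 57 pairs at 0 h and 57 at 24 h of doxycycline, and 45 were in both lists. Junb had 35 and 28 pairs, Fos 15 and 18, Fosl1 6 and 9, Jun 1 and 2, and Fosl2 none. Among 12341 genes 53.6% had fewer pairs at 24 h, as Junb did, and 28.4% had more. In edgeR 0 of the 45 shared pairs passed, against 2.80% of 67723 (0.601% higher and 2.20% lower), and DESeq2 called none. An unadjusted p under 0.05 (edgeR) was seen for 5 of the 45, beside 9367 of all 67723. The nearest were the pair between the flanking bins of Junb, with a log2 change of -0.41 (SE 0.16, adjusted p = 0.159, edgeR), and the pairs of chr8:84910001 with the Prdx2 and Junb bins, at -0.49 and -0.56. For Fos, the pair of chr12:85380001 with 85480001 had 3.94 ± 0.682 CPM at 0 h (SD, n = 3) and 5.72 ± 0.393 at 24 h (SD, n = 2), a log2 change of 0.63 at an adjusted p of 0.237 (edgeR). By the authors' annotation the central bins of Jun, Junb and Fos held H3K27ac peaks at both times.

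Hi-C, which needs no mark, listed more pairs in ES for Fos, Fosl1 and Fosl2, which all had fewer H3K27ac pairs in ES. Fos was listed with 18 pairs in MEF and 36 in ES, Junb with 9 and 32, Fosl1 with 13 and 18, Fosl2 with 11 and 15, and Jun with 9 and 5. More pairs in ES were seen for 78.6% of 16332 genes, and fewer, as for Jun, for 16.9%. With lists of equal length the difference over the 5 genes was 11 in place of 46. Fosl2 then had 3 fewer pairs in ES, Fosl1 1 more and Fos 9 more. For Fosl2, which had no H3K27ac pair in ES, 8 of the 11 MEF Hi-C pairs were also in the ES list, and the strongest, between chr5:32110001 and 32120001, had signals of 59.5 and 79.5 in MEF and 65.8 and 73.1 in ES. Signal is the authors' scaled count, set per chromosome.

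None of the 41 shared Hi-C pairs passed in edgeR, against 0.0289% of 124544 (0.0201% higher and 0.00883% lower), and DESeq2 called none. An unadjusted p under 0.05 (edgeR) was seen for 4 of the 41, beside 7487 of all 124544. The smallest p belonged to the pair of chr12:85340001 with the Fos bin, at a signal of 33.1 ± 2.61 in MEF and 19.6 ± 3.16 in ES (SD, n = 2 each), a log2 change of -0.92 (SE 0.29, adjusted p = 0.497, edgeR). For H3K27ac this pair stood in the MEF and TKO 24 h lists, without an entry for ES or TKO 0 h. The 9 shared Junb pairs had log2 changes of 0.05 to 0.76, and the 16 of Fos were above 0 for 8 and below for 8. In simulated data of this size the test recovered 32.5% of pairs changed 2-fold, so moderate changes in Hi-C were mostly not detectable. The domain around Fos was 2320 kb long in MEF and 800 kb in ES, where it began at chr12:85320001, just before the far block. All H3K27ac pairs of the 5 genes lay within 1 domain in MEF and in ES.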

How the data were processed

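The 9 interaction lists hold, per the file headers, raw counts and CPM for every library and 1 p-value and 1 FDR per pair of 10 kb bins. In HiChIP, the authors' CPM is the count over the contacts of the same chromosome. In Hi-C the column so named is a signal that the authors scaled by other constants. The ratio to distance in the deposited lists was not used. The submitters' processing notes name Bowtie2 2.2.3 and mm10. The contact caller is not given in the sources used here. The deposited lists had been filtered: every HiChIP p-value was under 0.1, and H3K27ac CPM was above 3 in each library. In KLF4 lists this held for replicates 1 and 2 alone.

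The 5 genes, the gene lists and the tests were chosen with earlier results of these data known. Pairs named are the strongest and longest per gene and list, those shared by most lists and every called pair. Presence was counted with no test. Strength of pairs in both lists was tested on counts with edgeR 4.0.16 (R 4.3.3; filterByExpr, TMM on contact totals, or on listed counts in Hi-C, quasi-likelihood test, Benjamini-Hochberg over all shared pairs, called at an adjusted p under 0.05), with DESeq2 1.42.0 among the alternatives. Libraries whose counts agree within sampling noise (chi-square p of 0.05 or more) while another pair of their group differed were joined and counted once: ES KLF4 1 with 2 and 3 with 4, and TKO 24 h 1 with 3. On simulated data with 200 pairs changed 2-fold, edgeR recovered 76.0% for H3K27ac ES against MEF (17901 pairs) and 71.0% for TKO (67723). Depth is given with the results. PCR copies mean that counts are not independent molecules. Gene starts come from RefSeq coordinates (GRCm38.p6) for 19887 protein-coding genes. For some of them, such as Fosl1, the authors' annotated bin set which end of the gene is the start. Domains are those of the deposited Hi-C domain lists, whose score per domain, as deposited by the authors, was not used. Not every listed partner bin is named, and 1 is not reported here.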

Additional observations from a re-analysis of the deposited data

Results flagged for a closer look

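Of the 8 AP-1 pairs tested among the 4 day 6 KLF4 libraries, 1 had a library far from the others. The pair of the Drap1 bin (chr19:5420001) with chr19:5450001 in the Fosl1 window had 7.28 CPM in replicate 1 against 4.01, 4.53 and 4.12 in replicates 2 to 4. Chance alone flags about 1 in 20 such groups.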

How the results depend on the processing

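H3K27ac calls between MEF and ES numbered 24, against 5 with DESeq2, 10 with the central bins only and 12 to 22 with a library left out. With contact totals alone the share of higher calls went from 9 of 24 to 13 of 22. KLF4 calls between day 3 and ES numbered 1, against 0 with contact totals alone, DESeq2, anchors at least 20 kb apart or central bins only, and 0 to 1 with a library left out. Between day 6 and ES they numbered 0, against 5 with contact totals alone, 4 with every library separate and 0 to 4 with a library left out. Between day 3 and day 6 they numbered 1, against 7 with contact totals alone, 0 with DESeq2 or anchors at least 20 kb apart, and 0 to 1 with a library left out. With contact totals alone TKO had 1 call and Hi-C 2, both of the latter lower in ES. Joining TKO 0 h replicates 2 and 3, an alternative chosen after seeing the data, gave 0. Over all pairs, contact totals alone moved the share of calls that were higher from 55.1% to 77.2% (H3K27ac ES against MEF), 77.1% to 99.9% (KLF4 ES against day 6), 24.8% to 0.377% (day 6 against day 3), 21.5% to 5.72% (TKO) and 69.4% to 0.613% (Hi-C), and the median of all pairs to 0.21, 0.58, -0.58, -0.10 and -0.33. DESeq2 called 13.7% of all pairs for H3K27ac ES against MEF and 0.975%, 0.722%, 1.62% and 0.397% for KLF4 ES against day 3, ES against day 6, day 6 against day 3 and TKO. The cause of these shifts was not tested. No called pair reversed.

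Replicate numbers did not pair the libraries: deviations of same-numbered libraries correlated at -0.05 to 0.04. With the replicate number as a block, in a fit that also kept every library separate, calls numbered 25 for H3K27ac ES against MEF, 0 for KLF4 ES against day 3, 4 for KLF4 ES against day 6, 0 for day 6 against day 3, 0 for TKO and 0 for Hi-C. Keeping every library separate without the block gave 1 for KLF4 ES against day 3, 4 for KLF4 ES against day 6 and 0 for TKO.

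The difference in number of pairs, ES minus MEF in H3K27ac, was -34, and -14 with 1 count cutoff for all chromosomes. For KLF4, ES minus day 6 was 18, against 6 with central bins only, 2 with lists of equal length and 10 with 1 cutoff. Day 6 minus day 3 was -24, against -10, 0 and -14 in the same order. For TKO, 24 h minus 0 h was 0, against -1 with anchors at least 20 kb apart, 9 with lists of equal length and -3 with 1 cutoff. Hi-C ES minus MEF was 46, against 17 with central bins only and 11 with lists of equal length. Single genes changed sign in 5 cases: with 1 cutoff, Junb in KLF4 ES minus day 3 (-2 to 1) and Fosl1 in TKO (3 to -1), and with lists of equal length, Jun (-1 to 1) and Fos (-11 to 1) in KLF4 day 6 minus day 3 and Fosl2 in Hi-C (4 to -3). AP-1 pairs held a median of 26 counts per HiChIP library, which limits the precision of single pairs.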
